A study of Mus musculus with 3 samples.

Results

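The secreted Wnt inhibitors described here are 9 genes (Wif1, Sfrp1, Sfrp2, Sfrp4, Frzb, Dkk1, Dkk2, Dkk3 and Notum) of the 21446 gene identifiers shared by the 3 libraries. They were taken by symbol and joined by identifier, and all 9 had UMIs in each library. The study asked how the cells that form acellular cementum, the thin mineral layer on the tooth root, arise and which of their steps need Wnt signalling. It sorted mCherry+ cells from the mandibular molars of mice carrying a Pthrp-mCherry knock-in reporter, at P15, P25 and 8 weeks after birth. The RNA of single cells was counted by the 10x Genomics 3′ method in 1 library for each age. All cells carried the same reporter allele and were collected because they were mCherry+, so no group without the reporter was measured. Molars of several mice were pooled for a library, so no age has a replicate and no difference between ages was tested.

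Wnt proteins bind Frizzled receptors together with the co-receptors Lrp5 or Lrp6, and the signal stabilizes β-catenin, which acts with Tcf/Lef factors in the nucleus. Secreted inhibitors act before that step. Wif1, the Sfrp proteins and Frzb bind Wnt proteins outside the cell, Dkk1 and Dkk2 bind the Lrp5/6 co-receptors, and Notum is an enzyme that removes the lipid that Wnt proteins need. In bone and tooth such inhibitors set where and when matrix-forming cells receive the signal, and Dkk1 and Notum are known as genes that Wnt signalling itself can switch on.

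On GRCm38, in GENCODE M21, Wif1 lies on chromosome 10 (121033960 to 121100650), Sfrp1 on chromosome 8 (23411502 to 23449632), Sfrp2 on chromosome 3 (83766321 to 83774316), Sfrp4 on chromosome 13 (19623104 to 19632994) and Frzb on chromosome 2 (80411970 to 80447625). Dkk1 lies on chromosome 19 (30545863 to 30549665), Dkk2 on chromosome 3 (132085292 to 132180304), Dkk3 on chromosome 7 (112116017 to 112159057) and Notum on chromosome 11 (120653788 to 120661175). Counts come from the 3′ ends of their transcripts.

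The P15 library held 12926 cells, that of P25 8971 and that of 8 weeks 5192, with medians of 14253.5, 15834 and 8712.5 unique molecular identifiers (UMIs, single captured RNA molecules) per cell. The P25 counts came from another software version with a larger gene reference, and 4.80% of its UMIs fell on genes not shared, so these cannot be told apart from that age. Between 13 and 26 cell barcodes were shared by any pair of libraries. Cells were placed in 8 gates by UMIs of 7 marker genes. The Ptprc gate took cells with at least 2 UMIs of this pan-leukocyte gene. Each other marker needed at least 3 UMIs and a level above the 95th percentile of the Ptprc-positive cells of the same library. That percentile, per 10000 UMIs of a cell, was 6.05, 23.2 and 7.03 for Ibsp at P15, P25 and 8 weeks. For Ifitm5 it was 0.421, 1.19 and 0, for Rgs5 0.844, 0.141 and 0, and for Krt14 8.90, 4.82 and 2.21. For Hand2 and Pappa2 it was 0 at each age. A gate is therefore not the same selection at each age, and the part of this in differences between ages was not tested. The 6 mesenchymal gates (all but Ptprc and Krt14) took cells without a Ptprc UMI and not above the Krt14 threshold. The Ifitm5 gate took such cells whatever their Ibsp. The Ibsp gate left out cells above the Ifitm5 or Hand2 threshold. Cells above those of Ibsp and Hand2, but not Ifitm5, formed the Ibsp Hand2 gate. The Hand2, Rgs5 and Pappa2 gates left out cells above the threshold of Ibsp, Ifitm5 or each other. Ibsp (bone sialoprotein) and Ifitm5 (a gene of mineralizing osteoblasts and cementoblasts) mark mineral-forming cells, Hand2 apical mesenchyme, Rgs5 perivascular cells, Pappa2 an early precursor and Krt14 epithelium. The gates held 1490, 1038 and 1094 Ibsp cells at P15, P25 and 8 weeks, 42, 492 and 443 cells with both Ibsp and Hand2, 645, 812 and 274 Ifitm5 cells, and 176, 336 and 107 Hand2 cells. The Rgs5 gate held 298, 126 and 144 cells, the Krt14 gate 1821, 1053 and 156, the Ptprc gate 813, 211 and 19, and the Pappa2 gate 439, 19 and 8, so that the Pappa2 gate is described from P15. A further 7041, 4833 and 2944 cells passed no gate, and 161, 51 and 3 were above a threshold but met the rules of no gate.

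Markers that did not set the gates were used to check them. Those of the Ibsp, Ifitm5, Hand2 and Krt14 gates are markers the paper gave for clusters found with these same libraries. The same clusters also had Ibsp, Ifitm5, Hand2 or Krt14 as a marker, so this check is not independent of the data. The 4 markers of the Ifitm5 gate (Phex, Bglap, Col11a2, Smpd3) were highest there in 12 of 12 marker and library pairs, and the 5 Krt14 markers in 15 of 15. The 4 Hand2 markers (Nts, Alx1, Tnn, Csrp2) were highest in one of the gates with Hand2 in 12 of 12. The Ibsp gates were highest for only 5 of 12 pairs of their markers Dmp1, Enpp1, Ank and Wnt5a, since Dmp1 and Ank at each age, and Enpp1 at P15, were highest in the Ifitm5 gate. The Rgs5 gate was highest for 10 of 18 pairs and did not hold like cells at each age. At 8 weeks 5 of its 6 markers were highest in another gate, so it is named by Rgs5 alone. Its level of Notch3, a receptor of mural cells, was 322 CPM (UMIs of a gene per 1000000 UMIs of the gate) at P15 against 29.9 at P25 and 7.66 at 8 weeks. The Ifitm5 gate held a few cells with Dspp, the gene of dentin sialophosphoprotein and a marker of odontoblasts, at 28.6, 33.0 and 0 CPM. At P15 the 17 cells with a Dspp UMI held 182 Phex UMIs, against 225 in the 628 without. At P25 the counts were 257 in 20 cells and 411 in 792. Of the cells without Dspp, 3.82%, 6.06% and 10.6% held Phex at P15, P25 and 8 weeks. Bglap was 36506 CPM with Dspp and 5739 without at P15, and 72371 and 13082 at P25. Dspp was also at 21.2 CPM in the Hand2 gate at P25, against 0 there at P15 and 8 weeks, and at 9.57 CPM in cells of no gate at P25. The part of such cells in the levels of the Hand2 gate was not tested.

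The UMIs of these inhibitors in the Ptprc gate served as the background and were taken as free RNA. Doublets were not removed, and neither these nor expression by leukocytes themselves could be told apart from free RNA. There the members other than Dkk1 lay between 17.7% and 35.7% of their own level over all cells at P15, and between 14.4% and 29.9% at P25. The Krt14 gate lay in about the same range at these ages, from 15% to 33.0% at P15 and from 9.84% to 23.9% at P25. At 8 weeks it did not, with 9.56% for Wif1 and 20.1% for Sfrp1 against 1.84% and 4.47% in the 19 cells of the Ptprc gate. By intervals the Krt14 gate was above the Ptprc gate for Wif1 at 8 weeks (487 against 93.8 CPM) and for Dkk3 at P15 (29.6 against 24.3 CPM). Among mesenchymal gates with at least 20 cells, 102 of 144 levels had a Poisson 95% interval above that of the Ptprc gate, 40 overlapped it and 2 lay below. At 8 weeks the Ptprc gate held only 19 cells, so its intervals were wide. Wif1 and Dkk3 were above it in 16 of 16 levels each, Sfrp2 in 15, Sfrp4 in 14, Sfrp1 and Dkk2 in 11, Frzb and Notum in 8, and Dkk1 in 3, the Ifitm5 gate at P15 and P25 and the Rgs5 gate at P15. The 2 levels below it were Sfrp2 in the Ibsp Hand2 gate and Dkk2 in the Ifitm5 gate, both at P25. After each cell was thinned to 3000 UMIs, a cell of the mesenchymal gates held UMIs of 2.26, 2.01 and 2.08 members on average at P15, P25 and 8 weeks, against 0.631, 0.481 and 0.438 in the Ptprc gate.

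**Figure D1:**
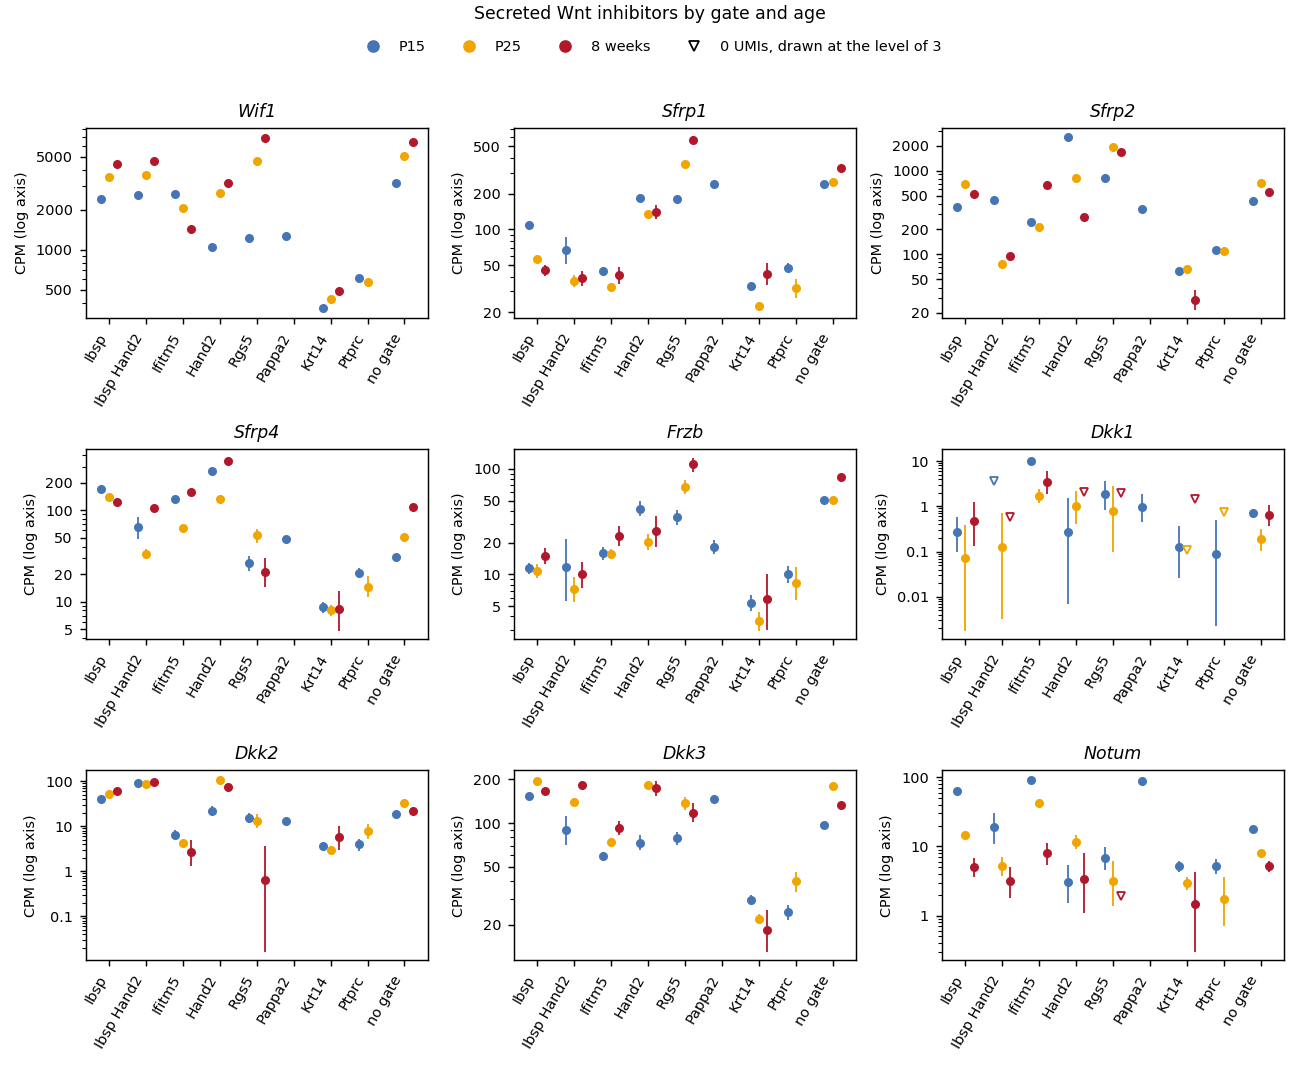
CPM of each member (log axis) by gate, with a point per library of at least 20 cells and exact Poisson 95% intervals, which cover counting error only. Wif1 was above the Ptprc gate of the same library in every mesenchymal gate. Dkk1 reached 10.0 CPM only in the Ifitm5 gate at P15, and Notum was lower at each later age in the Ifitm5 and Ibsp gates.

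Gates were compared with edgeR's quasi-likelihood test on 21 sums of UMIs per library and gate, with the library as a block, over 14402 genes. Each gate was set against the mean of the other mesenchymal gates, and the Krt14 gate against the mean of all 6. A call therefore says that a difference was larger than the variation over the 3 libraries, which are 3 ages of pooled mice. That variation was estimated for each gene from all gates in 1 fit, not from the compared gates alone. In the Rgs5 gate 6 of 9 members passed an adjusted p under 0.05, where 15.3% of all genes tested did, 3 of them higher (9.33% of genes) and 3 lower (5.96%). In the Ifitm5 gate 5 of 9 passed, against 17.1% of all genes, 2 of them higher (10.2% of genes) and 3 lower (6.97%). The gate of cells with Ibsp and Hand2 had 3 of 9, against 4.32%, with 1 higher (2.03% of genes) and 2 lower (2.28%). The Hand2 gate had 2, against 4.43%, both higher (2.33%). Between the Ibsp and the Ifitm5 gate 3 members passed, against 4.51% of genes, 2 of them higher in the Ibsp gate (2.12%) and 1 lower (2.4%). The Ibsp gate against the other mesenchymal gates had 0 of 9 members by edgeR and 0 by DESeq2, where 1.33% of genes passed by edgeR, although 6 members had an unadjusted p under 0.05 by edgeR and 5 by DESeq2. The Pappa2 gate had 0 of 9 by both tools, against 0.542% of genes by edgeR, with 3 members at an unadjusted p under 0.05 by edgeR and 2 by DESeq2. Its comparison rests on the sum of the P15 library, so it has no spread over libraries of its own. In the Krt14 gate all 9 were lower, against 24.7% of genes lower, and 7 of the 9 lost the call when the gate needed 3 UMIs alone, Dkk3 and Sfrp4 being the exceptions. Of the 7, Notum was also lost without the block (0.0571), and Dkk1 without P25 and with gates at the 99th percentile.

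**Figure D2:**
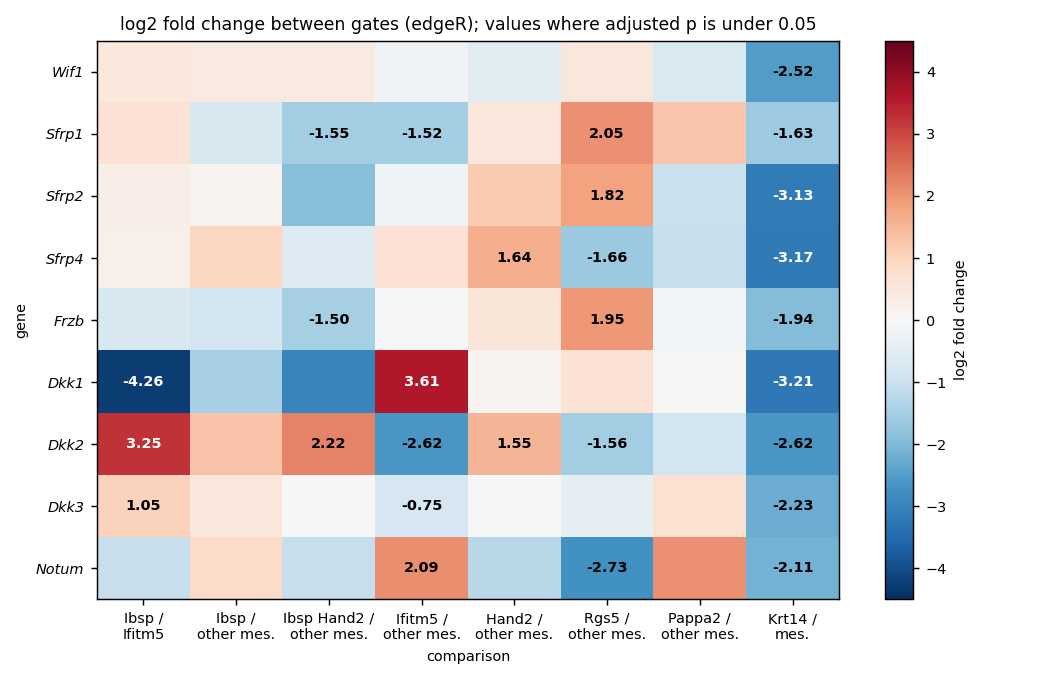
Colour gives the log2 fold change of each member (rows) in the 8 comparisons of gates (columns, "mes." for mesenchymal gates), and a number stands where the edgeR adjusted p was under 0.05. The Ifitm5 column pairs Dkk1 (3.61) and Notum (2.09) against Dkk2 (−2.62), and the Rgs5 column pairs Sfrp1 (2.05) and Frzb (1.95) against Notum (−2.73).

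Wif1, the Wnt inhibitory factor, was found in 88.8%, 94.8% and 94.5% of the thinned cells of all mesenchymal gates at P15, P25 and 8 weeks, but in only 54.0% of the Rgs5 gate at P15 (73.8% without thinning). It was present in 95.6%, 98.9% and 96.7% of Ibsp cells at the same ages, and in 100% of the 42, 492 and 443 cells with both Ibsp and Hand2. The Ptprc gate had 35.1%, 29.1% and 37.5%. Without thinning the Ibsp gate had 97.7%, 98.3% and 95.5% and the Ptprc gate 64.5%, 66.4% and 78.9%, so shares of cells are given thinned from here on and cells under 3000 UMIs (1762, 778 and 959 of the libraries) are left out of them. Its level was 2407, 3526 and 4428 CPM in the Ibsp gate and 2575, 3660 and 4628 CPM in the Ibsp Hand2 gate, which lay side by side at each age. In the Hand2 gate it was 1052, 2672 and 3158 CPM, below both Ibsp gates at each age. In the Rgs5 gate the ages differed most among the gates of at least 20 cells, with 1220 CPM at P15, 4641 at P25 and 6954 at the last age, a ratio of 5.70 between 8 weeks and P15 (95% interval 5.52 to 5.90, counting error only). The Ifitm5 gate had the opposite order, with 2642, 2042 and 1435 CPM. Its share of Wif1-positive cells was 95.5%, 86.1% and 75.5%, or 99.5%, 98.4% and 91.6% without thinning. Cells in no gate held 3190, 5046 and 6498 CPM. Of the mesenchymal comparisons none passed the test for Wif1, the smallest adjusted p being 0.349 for the Rgs5 gate. In the order of mean levels (Ibsp Hand2, Rgs5, Ibsp, Hand2, Ifitm5, Pappa2), Ibsp lay above Hand2 beyond the spread over libraries, by 0.69 ± 0.43 (SD, n = 3) on the log2 scale. Only neighbours in this order were compared. Ibsp Hand2 and Rgs5 did not differ beyond their spread, nor did Rgs5 and Ibsp, nor Hand2 and Ifitm5. Ibsp Hand2 was slightly above Ibsp at each age.

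The higher Wif1 of the Rgs5 gate at later ages stood beside a change of its cells. At P15 the 214 Rgs5 cells with a Notch3 UMI held 826 CPM of Wif1 and the 84 without it 1957 CPM. At P25 the values were 3365 CPM in 34 cells and 5102 CPM in 92, and at 8 weeks 3501 CPM in 8 cells and 7212 CPM in 136. Wif1 was lower in the cells with Notch3 at each age, and it was higher at later ages among the cells without Notch3 too. The part of this change of cells in the difference was not tested further.

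Sfrp1 and Frzb, both decoys with a Frizzled-like domain, were higher in the Rgs5 gate than in the mean of the other mesenchymal gates. Sfrp1 was 179, 355 and 567 CPM in the Rgs5 gate at P15, P25 and 8 weeks, and it was found in 26.1%, 57.1% and 77.3% of thinned cells (89.7% and 95.1% at the later ages without thinning), against 6.94%, 3.81% and 0% of the Ptprc gate. In the Hand2 gate it was 184, 135 and 141 CPM, and in the Pappa2 gate at P15 240 CPM. At P15 the 214 Rgs5 cells with a Notch3 UMI held 109 CPM of Sfrp1, near the Ibsp gate, and the 84 without it 310 CPM. At P25 the values were 335 CPM with Notch3 and 362 CPM without, and at 8 weeks 404 and 579 CPM. The Ifitm5 gate, with 44.6, 32.7 and 41.2 CPM, did not stand above the 47.6 and 32.0 CPM of the Ptprc gate at P15 and P25. Sfrp1 was higher in the Rgs5 gate than in the mean of the other mesenchymal gates (edgeR, log2 fold change 2.05 ± 0.28 (SE), adjusted p = 0.000246, higher in 3 of 3 libraries). It was lower in the Ifitm5 gate (−1.52 ± 0.33, adjusted p = 0.00501) and in the Ibsp Hand2 gate (−1.55 ± 0.34, adjusted p = 0.0197), in 3 of 3 libraries each. Without the P25 library these latter calls were lost by edgeR, with adjusted p = 0.148 and 0.400, and the Ibsp Hand2 call also without 8 weeks, with 0.144, and with gates of 3 UMIs alone, with 0.145.

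Frzb was 34.9, 68.2 and 111 CPM in the Rgs5 gate, where 10.5%, 17.5% and 28.4% of thinned cells held it (28.9%, 61.9% and 68.8% without thinning), against 1.70%, 2.38% and 0% of the Ptprc gate. In the Ibsp gate it was 11.4, 10.8 and 15.1 CPM, close to the 10.0 and 8.30 CPM of the Ptprc gate at P15 and P25. The Hand2 gate held 42.0, 20.4 and 25.9 CPM, more than the Rgs5 gate at P15 and less at the later ages. In mean level Rgs5 lay above Hand2, but not beyond the spread over libraries (1.16 ± 1.24 on the log2 scale, SD, n = 3). Cells in no gate held 50.4, 51.1 and 84.0 CPM. The Rgs5 gate was higher than the mean of the other mesenchymal gates (edgeR, 1.95 ± 0.24, adjusted p = 8.58e-05, 3 of 3 libraries), and this call and that of Sfrp1 remained in each alternative run. Leaving out the Rgs5 cells with Notch3 gave 2.0 for Frzb (adjusted p = 2.3e-05) and 2.25 for Sfrp1 (adjusted p = 6.79e-06) by edgeR. The Ibsp Hand2 gate was lower for Frzb (log2 fold change −1.50 ± 0.32, adjusted p = 0.0153), which edgeR did not call without P25 (0.375), without 8 weeks (0.208), with gates at the 99th percentile (0.144) or with gates of 3 UMIs alone (0.0554). In that gate Frzb was at 11.8, 7.26 and 10.1 CPM, and its intervals overlapped that of the Ptprc gate.

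Sfrp2, another decoy of this kind, changed its place with age. In the Hand2 gate it was 2512 CPM at P15 and 824 and 276 CPM later, a value 9.10 times lower at 8 weeks (95% interval 8.23 to 10.1, counting error only). The share of thinned Hand2 cells with Sfrp2 was 81.8%, 19.4% and 14.0%, or 90.3%, 35.1% and 25.2% without thinning, and the Ptprc gate had 9.56%, 4.29% and 6.25%. In the Rgs5 gate it was 809, 1942 and 1695 CPM, with 31.7%, 65.9% and 72.3% of cells. In the Ifitm5 gate it was 246, 209 and 666 CPM, and in the Ibsp gate 367, 702 and 522 CPM. Cells with both Ibsp and Hand2 held 446, 77.2 and 94.9 CPM, at P25 below the 109 CPM of the Ptprc gate. The Hand2 gate also changed with age. The 70, 57 and 13 of its cells without an Ibsp UMI, in order of age, held 2836, 1916 and 1213 CPM of Sfrp2. Those with Ibsp held 2309, 609 and 160 CPM in 106, 279 and 94 cells. Sfrp2 was higher in the Rgs5 gate than in the others (edgeR, 1.82 ± 0.57, adjusted p = 0.0422, 3 of 3 libraries). That call was lost in 7 of 14 alternatives, among them the edgeR runs without P25 (0.382) and without 8 weeks (0.148). Over all 14, by edgeR or DESeq2, the adjusted p lay between 0.0139 and 0.382.

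Sfrp4, another decoy, had its highest mean level in the Hand2 gate. It was 271, 132 and 344 CPM in the Hand2 gate at P15, P25 and 8 weeks, 170, 140 and 122 CPM in the Ibsp gate and 134, 63.9 and 158 CPM in the Ifitm5 gate. The Ibsp Hand2 gate held 64.8, 33.5 and 106 CPM and the Rgs5 gate 26.5, 52.8 and 21.1 CPM, against 20.5 and 14.6 CPM in the Ptprc gate at P15 and P25. Thinned cells with Sfrp4 made up 43.8%, 28.3% and 48.6% of the Hand2 gate and 6.97%, 10.3% and 6.38% of the Rgs5 gate, against 3.14%, 1.91% and 0% of the Ptprc gate. Without thinning the Hand2 gate had 76.1%, 70.2% and 85.0%. Sfrp4 was higher in the Hand2 gate (edgeR, 1.64 ± 0.29, adjusted p = 0.00460, 3 of 3 libraries) and lower in the Rgs5 gate (−1.66 ± 0.37, adjusted p = 0.00776, 3 of 3 libraries). Without P15 neither was called, with edgeR adjusted p = 0.186 and 0.167, and the Rgs5 call was also lost without 8 weeks (0.0844). With gates at the 99th percentile both were lost as well (0.255 and 0.0524), and with sums of at least 5 cells the Hand2 call (0.0734). In the order of mean levels only neighbours were compared. Hand2 and Ibsp did not differ beyond their spread, nor did Ibsp and Ifitm5, although Hand2 was above Ifitm5 at each age. Ifitm5 lay above Ibsp Hand2 by 0.84 ± 0.24 (SD, n = 3) on the log2 scale. In the 19 and 8 cells of the Pappa2 gate at P25 and 8 weeks it was 290 and 359 CPM, against 48.1 CPM in the 439 cells at P15.

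Dkk1, the classical Lrp5/6 antagonist, was rare. The Ifitm5 gate held 131 UMIs in 645 cells at P15, 37 in 812 at P25 and 13 in 274 at 8 weeks, or 10.0, 1.71 and 3.45 CPM. The Ibsp gate held 6, 1 and 4 UMIs at the same ages, or 0.264, 0.0702 and 0.475 CPM, and the Ptprc gate 1, 0 and 0. The Rgs5 gate held 8 UMIs at P15, or 1.88 CPM. Before thinning, 55, 27 and 5 Ifitm5 cells held any Dkk1. Dkk1 was higher in the Ifitm5 gate than in the other mesenchymal gates (edgeR, 3.61 ± 0.54, adjusted p = 0.000269, 3 of 3 libraries), a call that remained in each alternative run. It was lower in the Ibsp gate than in the Ifitm5 gate (−4.26 ± 0.80, adjusted p = 0.00701, 3 of 3 libraries), and edgeR did not call this without P25 (0.181) or without 8 weeks (0.0559). Within the Ifitm5 gate, the cells with a Dspp UMI held more Dkk1 per UMI. At P15 it was 51.3 CPM in 17 cells with Dspp and 8.63 CPM in 628 without, and at P25 14.4 CPM in 20 cells and 1.16 CPM in 792. At 8 weeks none of the 274 cells held Dspp. Without the Dspp cells the Ifitm5 gate remained higher for Dkk1 (edgeR, 3.36, adjusted p = 0.000770), the alternative having been chosen after these values were seen.

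Because Dkk1 is known to answer to Tcf/Lef factors, the RefSeq promoters (GRCm38.p6, from 250 bases before to 50 after the start) were searched for the letters CTTTGAA or CTTTGAT on both strands. Promoters were on hand for 5 members (Wif1, Sfrp2, Frzb, Dkk1, Dkk2). Of these only that of Dkk1 held the letters, where 8.65% of 32851 promoters do. The match, in capitals, begins 117 bases before the RefSeq start of Dkk1 (30549496), on the minus strand of chr19:30549596-30549624. The GENCODE gene starts further upstream, so that the same letters begin 52 bases inside it. It is a match of letters only.
Dkk1: tcctcccaaagCTTTGAAatcccatcccg

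Dkk2, a second ligand of the Lrp5/6 co-receptors, had its highest mean level in cells with both Ibsp and Hand2. In the Ibsp Hand2 gate it was 90.8, 88.1 and 96.6 CPM at P15, P25 and 8 weeks and in the Ibsp gate 39.8, 52.4 and 59.8 CPM. The Ifitm5 gate held 6.51, 4.29 and 2.66 CPM, near the 3.93 and 7.80 CPM of the Ptprc gate, so the Ibsp Hand2 gate was far above it at each age. In the Hand2 gate Dkk2 was 22.1, 104 and 73.0 CPM, at P25 above the Ibsp Hand2 gate. In mean level Ibsp Hand2 lay above Hand2, but not beyond the spread over libraries (0.72 ± 1.15 on the log2 scale, SD, n = 3). Thinned cells with Dkk2 made up 21.4%, 21.1% and 21.9% of the Ibsp Hand2 gate and 1.87%, 0.745% and 1.12% of the Ifitm5 gate, the Ptprc gate having 0.524%, 1.43% and 0%. Without thinning these were 69.0%, 54.7% and 49.0% of the Ibsp Hand2 gate and 7.13%, 5.67% and 2.92% of the Ifitm5 gate. Dkk2 was higher in the Ibsp Hand2 gate than in the others (edgeR, 2.22 ± 0.36, adjusted p = 0.00415) and in the Hand2 gate (1.55 ± 0.38, adjusted p = 0.0314), in 3 of 3 libraries each, although at P15 the log2 ratio of the Hand2 gate was 0.0017. It was lower in the Ifitm5 gate (−2.62 ± 0.47, adjusted p = 0.00127) and in the Rgs5 gate (−1.56 ± 0.47, adjusted p = 0.0376), again in 3 of 3. The Ibsp gate was higher than the Ifitm5 gate (edgeR, 3.25 ± 0.52, adjusted p = 0.00299, 3 of 3 libraries). Without P25, none of these 5 calls was made by edgeR, with adjusted p from 0.0943 to 0.553. Without 8 weeks the Hand2 (0.143) and Rgs5 (0.199) calls were lost. The Rgs5 call was lost in 8 of 14 alternatives, and the Ibsp Hand2 call also with gates at the 99th percentile (0.0532).

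Dkk3, which belongs to the family by sequence, was spread widely. Its level was 153, 195 and 165 CPM in the Ibsp gate at P15, P25 and 8 weeks, 73.5, 182 and 173 CPM in the Hand2 gate and 78.5, 137 and 118 CPM in the Rgs5 gate. Of the mesenchymal gates with at least 20 cells the Ifitm5 gate was lowest at each age with 59.2, 74.2 and 92.7 CPM, still above the 24.3 and 39.8 CPM of the Ptprc gate at P15 and P25. It was lower in the Ifitm5 gate than in the other mesenchymal gates (edgeR, −0.75 ± 0.22, adjusted p = 0.0267) and higher in the Ibsp than in the Ifitm5 gate (1.05 ± 0.26, adjusted p = 0.0315), in 3 of 3 libraries each. Each of these calls was lost in 5 of 14 alternatives, among them those without P25 (0.285 and 0.519) and without 8 weeks (0.0948 and 0.136).

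Notum, the Wnt deacylase, was lower in the older libraries. The Ifitm5 gate held 90.2, 43.0 and 7.97 CPM at P15, P25 and 8 weeks, the Ibsp gate 62.9, 14.7 and 4.99 CPM, and the Ibsp Hand2 gate 18.9, 5.22 and 3.16 CPM. Over all mesenchymal gates the level was 64.7, 23.8 and 4.57 CPM, 14.2 times lower at 8 weeks than at P15 (95% interval 11.5 to 17.6, counting error only). The Hand2 gate, with 3.04, 11.6 and 3.41 CPM, did not follow this course. The share of thinned cells with Notum was 17.3%, 9.69% and 1.49% in the Ifitm5 gate and 15.4%, 3.45% and 1.36% in the Ibsp gate, against 0.916% and 1.43% in the Ptprc gate at P15 and P25. Without thinning the Ifitm5 gate had 46.8%, 37.7% and 5.47%. In the Pappa2 gate Notum was 87.9 CPM at P15, in 23.0% of cells, and 0 UMIs were seen in its 19 cells at P25 and 8 cells at 8 weeks. With 3 UMIs as the floor of a sum, the Pappa2 level at 8 weeks was 2.28-fold lower than at P15. The 95% interval of that ratio, for counting error only, reached down to 1.85-fold.

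Notum was higher in the Ifitm5 gate than in the other mesenchymal gates (edgeR, 2.09 ± 0.36, adjusted p = 0.00104, 3 of 3 libraries) and lower in the Rgs5 gate (−2.73 ± 0.59, adjusted p = 0.00597, 3 of 3 libraries). Without the library as a block edgeR made neither call (0.0697 and 0.104). The Rgs5 call was also lost with gates at the 99th percentile (0.113), without P25 (0.0634) and without 8 weeks (0.0562). In the Rgs5 gate Notum was 6.80, 3.15 and 0 CPM at P15, P25 and 8 weeks, and its intervals overlapped those of the Ptprc gate. At 8 weeks the Notum interval of every mesenchymal gate, that of Ifitm5 included, overlapped that of the Ptprc gate. The Ifitm5 and Ibsp gates were not called different (−1.03, adjusted p = 0.276), although Notum was lower in the Ibsp gate in each library, and without P15 edgeR called it (−1.57, adjusted p = 0.00219). The Pappa2 gate had a log2 fold change of 2.07 (edgeR, adjusted p = 0.112). The Dspp cells of the Ifitm5 gate had little Notum, 4.66 CPM against 93.1 in the cells without Dspp at P15 and 17.8 against 44.1 at P25, the reverse of Dkk1.

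**Figure D3:**
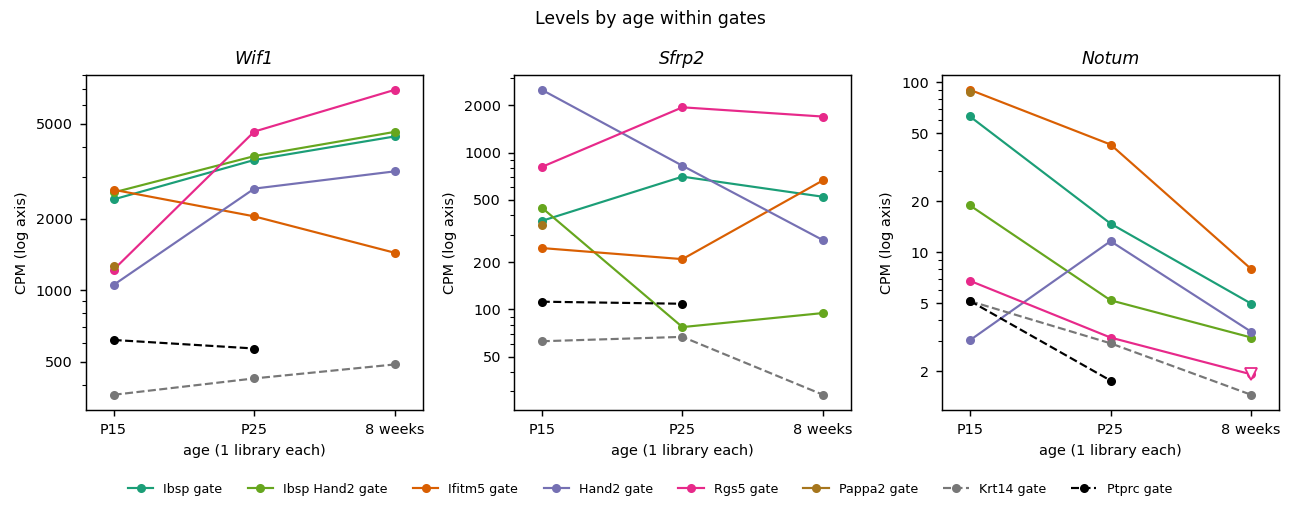
CPM (log axis) of Wif1, Sfrp2 and Notum by age, with a line per gate, dashed for the Krt14 and Ptprc gates, and sums of under 20 cells left out. An open triangle marks 0 UMIs, drawn at the level of 3. Wif1 in the Rgs5 gate was 1220 CPM at P15 and 6954 at 8 weeks, Sfrp2 in the Hand2 gate 2512 and 276, and Notum in the Ifitm5 gate 90.2 and 7.97.

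Pairs of members were compared within a gate by the number of thinned cells holding both against the number expected from their shares. Of 207 pairs by gate and library with at least 10 cells expected, 31 had a ratio above 1.25 and 23 a ratio below 0.8. Cells of a library share depth and free RNA, and these ratios carry no test. Sfrp2 and Sfrp4 were found together more often than expected. In the Ifitm5 gate 77 cells held both at P15 where 49.9 were expected, 75 against 24.1 at P25, and 58 against 29.1 at 8 weeks, ratios of 1.54, 3.12 and 2.0, or 1.29, 1.57 and 1.49 without thinning. In the Ibsp gate the ratios were 1.29, 2.08 and 1.99. Sfrp2 and Dkk3 were found together in the Ifitm5 gate at ratios of 1.39, 1.99 and 1.66.

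In the Ifitm5 and Ibsp gates, thinned cells shared Notum and Sfrp2 less often than expected at P15 and P25. In the Ifitm5 gate 17 cells held both at P15 where 31.6 were expected and 4 at P25 where 15 were, and in the Ibsp gate 44 against 77.1 and 6 against 10.0. Without thinning, where a deep cell is more likely to hold both, the ratios of Sfrp2 with Notum were 0.771 and 0.624 in the Ifitm5 gate and 0.857 and 1.02 in the Ibsp gate, so the low ratio in the Ibsp gate at P25 rested on the thinned cells. Sfrp4 with Notum had ratios of 0.496 and 0.495 in the Ifitm5 gate at P15 and P25, or 0.755 and 0.778 without thinning. Sfrp2 with Dkk2 stood at 0.533, 0.467 and 0.538 in the Ibsp gate, or 0.891, 0.674 and 0.593 without thinning. Dkk1 was in too few thinned Ifitm5 cells (16, 3 and 0) for such a ratio.

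**Figure D4:**
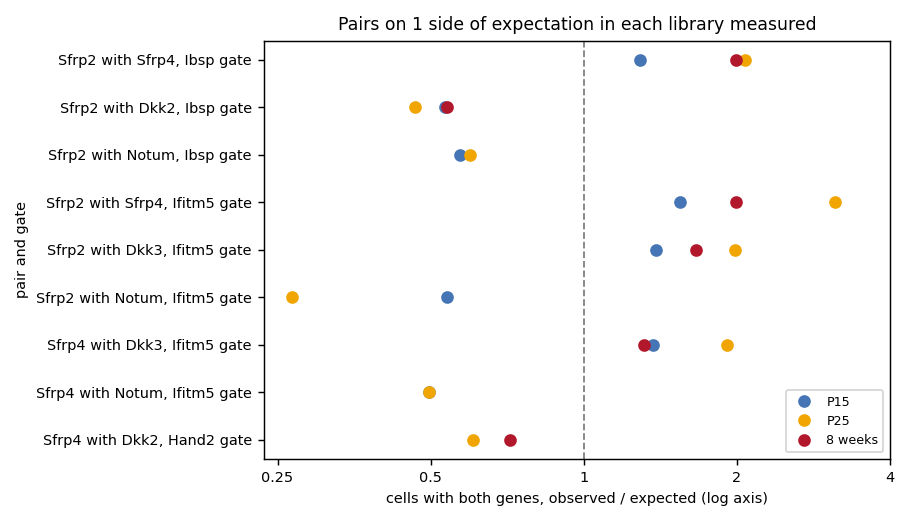
Ratio of observed to expected cells with both members (log axis), with a point per library with at least 10 cells expected, for the pairs that lay on one side in each of at least 2 such libraries. Sfrp2 with Sfrp4 lay between 1.29 and 3.12 and Sfrp2 with Notum between 0.266 and 0.598.

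Over the 19 sums of the mesenchymal and Krt14 gates, which share libraries, the pairs of members most alike by Pearson's r of log2(CPM + 1) were Sfrp1 with Frzb (0.858), Sfrp2 with Frzb (0.855) and Wif1 with Dkk3 (0.837). Dkk1 and Dkk2 had an r of −0.29. The 19 sums include those of the Krt14 gate, where all 9 members were lower. The part of that gate in these r values and in those below was not tested. Of 4839 other genes with at least 50 CPM in a sum, those most like Sfrp1 included Igf1 (0.955), a growth factor, and Igfbp4 (0.919), a binding protein of such factors. Those most like Frzb were Ncam1 (0.973), a cell adhesion molecule, Dio3 (0.934), a deiodinase of thyroid hormone, and Oat (0.911). Dkk2 was most like Adgrl3 (0.958), Hmcn1 (0.939) and Samd1 (0.920), and Dkk3 most like Timp2 (0.967), an inhibitor of metalloproteinases, Rnft1 (0.961) and Acvr1 (0.953), a BMP receptor. For Wif1 they were Aplp2 (0.915), Cnpy4 (0.913) and Sgce (0.912), for Sfrp2 Stx8 (0.895), Ncam1 (0.883) and Ptch1 (0.863), and for Sfrp4 Lpar1 (0.900), Plod2 (0.882) and Epdr1 (0.876). Notum, with Sec61b (0.862), Ufsp2 (0.828) and Pfkfb3 (0.828), and Dkk1, with Col2a1 (0.819), Nes (0.815) and Rab6a (0.808), had the least alike neighbours.

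The rest of the pathway was read from 4 lists of genes tested by the same edgeR fit. In the Ifitm5 gate, where Dkk1 and Notum were higher, 5 of 11 canonical response genes were higher and 1 lower, with a median log2 fold change of 0.60 against −0.00 over all genes. Among them were Bambi (2.77 ± 0.27, adjusted p = 6.6e-06), a TGF-β pseudoreceptor, and Sp5 (2.35 ± 0.71, adjusted p = 0.0354), a transcription factor that Wnt signalling switches on. Of 13 ligands 3 were higher and 0 lower, led by Wnt10a (3.54 ± 0.20, adjusted p = 2.8e-08) and Wnt6 (3.02 ± 0.28, adjusted p = 3.96e-06). Of 12 other extracellular modulators 0 were higher and 3 lower, with Trabd2b (−2.48), a protease that cuts Wnt proteins, and the Wnt inhibitor Draxin, of which the gate held only 3, 0 and 0 UMIs at P15, P25 and 8 weeks. Of 22 receptors 3 were higher, with Fzd9 (1.83), and 1 lower, Rnf43 (−1.87), a ligase that removes Frizzled receptors. Over all genes tested 10.2% were higher in this gate and 6.97% lower, so the receptor counts lay near these shares. Of the 16 calls in these lists 10 remained without P25 and 12 without 8 weeks.

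The Rgs5 gate, where Sfrp1 and Frzb were higher and Notum lower, had 1 canonical response gene higher and 6 lower of 11, with a median of −0.89 against −0.03 over all genes by edgeR. Among these were Nkd1 (−1.84 ± 0.46, adjusted p = 0.0138), a feedback inhibitor inside the cell, and Sp5 (adjusted p = 0.0374), with 0 UMIs in the Rgs5 gate of each library. Of 13 ligands 1 was higher and 7 lower, led by Wnt7b (−3.47) and Wnt5b (−2.26), and of 22 receptors 1 was higher and 4 lower, with Lgr6 (−1.74) and Fzd1 (−1.24). Of 12 modulators 4 were higher, led by the BMP and Wnt antagonist Sostdc1 (1.99) and by Trabd2b (1.95), and 2 lower. Of the 26 calls in these lists 8 remained without P25 and 13 without 8 weeks. Over all genes tested 9.33% were higher in the Rgs5 gate and 5.96% lower. In the Ibsp gate 4 of 13 ligands were higher, with Wnt7b (2.17) and Wnt10a (1.99), while 0 of 9 members and 0 of 22 receptors passed, and 2 of 11 canonical response genes, Nkd2 (1.12) and Tcf7 (1.10), and 1 of 12 modulators, Rspo1 (1.24), were higher. In the Ibsp Hand2 gate 3 of 11 canonical response genes were higher, with Nkd1 (1.48) and Lef1 (1.06), and so were 2 ligands, Wnt7b (2.0) and Wnt5b (1.03). It had 2 receptors higher and 1 lower, Lgr6 (1.66) and Fzd9 (−2.10) being the largest, and 1 modulator lower, Igfbp4 (−0.75). None of the 9 calls of the Ibsp Hand2 gate was made by edgeR without P25 or without 8 weeks, and of the 7 of the Ibsp gate 2 remained in each case. Over all genes tested 1.33% were called in the Ibsp gate in either direction. In the Ibsp Hand2 gate 2.03% were higher and 2.28% lower.

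In the Hand2 gate 0 of 11 canonical response genes were higher and 3 lower, with Nkd2 (−1.24) and Bambi (−1.23). It had 2 ligands higher and 2 lower, with Wnt10a (−3.19) and Wnt6 (−2.02) the largest in size, and 1 receptor higher, Rnf43 (1.94). Its 1 higher modulator was Draxin, with 12, 14 and 3 UMIs in the gate at P15, P25 and 8 weeks. Of the 9 calls 4 remained without P25 and 4 without 8 weeks. Over all genes tested 4.43% were called in the Hand2 gate in either direction, and 2.33% were higher. Between the Ibsp and the Ifitm5 gate Bambi (−2.46), Wnt10a (−1.29), Fzd9 (−2.0) and Lrp4 (−1.22), a co-receptor that binds sclerostin, were lower in the Ibsp gate, and Rspo1 (1.15) and Igfbp4 (1.01) were higher. Without P25 none of these 6 was called by edgeR, and 1 without 8 weeks. Over all genes tested 2.12% were higher in the Ibsp than in the Ifitm5 gate and 2.4% lower. The Pappa2 gate had 0 calls in the 4 lists by edgeR.

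In the Krt14 gate, where 33.3% of all genes were called higher and 24.7% lower, Sfrp5, a further decoy, had 343, 45 and 0 UMIs there at P15, P25 and 8 weeks against 5, 3 and 1 in all mesenchymal gates, and was higher in the Krt14 gate (edgeR, adjusted p = 6.78e-07). Sostdc1 was higher by 2.98 on the log2 scale, and the other 8 called modulators of the 12 were lower. Of 13 ligands 7 were higher and 3 lower. Among the higher ones Wnt7a had 324, 38 and 1 UMIs in the Krt14 gate against 14, 0 and 0 in the mesenchymal gates, and Wnt3a had 136, 83 and 8 against 9, 1 and 0. Of 22 receptors 6 were higher, with Fzd6 (3.43) and Fzd10 (2.41), and 9 lower, and of 11 canonical response genes 1 was higher and 6 lower, with Lef1 (−2.46) and Nkd1 (−2.43). Of the 42 calls 27 remained without P25 and 35 without 8 weeks.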

How the data were processed

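Single cells of 3 libraries (P15, P25 and 8 weeks) were analysed. The authors aligned the reads and made the deposited UMI counts per gene and cell with Cell Ranger (6.1.2 and mm10 in the submitters' processing notes, while the P25 file header names 6.0.1). The values are raw counts of whole UMIs, not normalized. The members and all gene lists were chosen with earlier results of these data known. The files were joined by gene identifier over 21446 shared genes, and all deposited cells were kept, with no doublet removal. Levels are CPM of the summed UMIs of a gate with exact Poisson 95% intervals, and shares carry exact Clopper-Pearson intervals. Both cover counting error only. Totals were 188157997, 169712592 and 46234378 UMIs.

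Sums per library and gate of at least 20 cells were fitted with edgeR's quasi-likelihood test (TMM, filterByExpr, robust, library as a block, Benjamini-Hochberg adjustment), and the standard error was taken from the fold change and its F value. The 3 libraries are single pools at different ages. The p-values set a gate difference against the spread over these libraries, estimated for each gene from all gates in 1 fit. The Pappa2 gate, with 1 sum, adds nothing to that spread. Cells were thinned to 3000 UMIs for shares and pairs. Named were all members, the 3 genes most like each (1 of them is not reported here), and the 2 called genes with the largest change per pathway list and comparison. On simulated counts of the Ifitm5 comparison over 13663 genes, 99 of 100 genes changed by 2 on the log2 scale and 100 of 100 changed by 3 were called. So were 10 unchanged genes. The simulated libraries differed in depth but not by age, and only genes with a mean expected count above 20 UMIs were changed. The shares called therefore do not carry over to the real libraries or to rare genes such as Dkk1. Alternatives covered scaling, filters, DESeq2, gate thresholds, cell filters, the block and each library left out. Those with sums of at least 5 cells, without Dspp cells and without Notch3 cells were chosen after seeing the data. No columns of the authors' own comparisons were used.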

Additional observations from a re-analysis of the deposited data

Results flagged for a closer look

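For 3 results the log2 ratio of a gate to the mean of the other mesenchymal gates changed its sign between ages while staying at least 0.5 from 0 at each age. The Pappa2 gate was part of that mean only at P15, since it held under 20 cells later. With 1 library per age none of these differences between ages was tested.

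Sfrp2 in the Ifitm5 gate had log2 ratios of −1.30, −1.03 and 1.01 in the P15, P25 and 8-week libraries. Sfrp2 in the Hand2 gate had 2.58, 0.96 and −0.95 at the same ages, and the Hand2 gate held 70, 57 and 13 cells without an Ibsp UMI. Wif1 in the Rgs5 gate had −0.75, 0.53 and 1.09, and the Rgs5 gate held 214, 34 and 8 cells with a Notch3 UMI. The part of these changes of cells in the ratios was not tested.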

How the results depend on the processing

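Counts of genes called between gates depended on the library block and on each library, and lacking replicates of an age, the cause was not tested. Genes called numbered 650 between the Ibsp and Ifitm5 gates, 192 in the Ibsp gate, 622 in the Ibsp Hand2 gate, 2466 in the Ifitm5 gate, 638 in the Hand2 gate, 2203 in the Rgs5 gate, 78 in the Pappa2 gate and 8353 in the Krt14 gate. Without the library (replicate) block the first 5 of these were 239, 69, 389, 1589 and 311, and the others stayed within 1.5 times. With DESeq2 the Ibsp against Ifitm5 count was 1046, the Ibsp Hand2 count 1096 and the Pappa2 count 170. Gates at the 99th percentile gave 224 for Ibsp Hand2 and 196 for Pappa2, and gates of 3 UMIs alone 81 for Ibsp and 4235 for Krt14. Without the 5% of cells with the most UMIs the Pappa2 count was 148, and with sums of at least 5 cells it was 305 and the Ibsp against Ifitm5 count 396. With each library left out in turn the counts ranged from 2 to 2167 for Ibsp against Ifitm5, 31 to 457 for Ibsp, 3 to 1694 for Ibsp Hand2, 687 to 3811 for Ifitm5, 60 to 1502 for Hand2, 667 to 3356 for Rgs5, 8 to 35 for Pappa2 and 5346 to 8800 for Krt14. The lowest came without P25, and the highest without P15 except in the Pappa2 gate, where the fit without P15 could not be made. Fits without P15 had no Pappa2 sum, so that gate was also missing from their mesenchymal means. Of 28 called results of members, 5 remained in each alternative (Dkk1 in the Ifitm5 gate, Sfrp1 and Frzb in the Rgs5 gate, Dkk3 and Sfrp4 in the Krt14 gate). With a library left out 58 calls were kept and 26 lost, and over the other alternatives 272 were kept and 35 lost. Dkk1 in the Krt14 gate reversed to 1.15 on the log2 scale with gates of 3 UMIs alone (edgeR, adjusted p = 0.350). Notum in the Pappa2 gate was called without the 5% of cells with the most UMIs (2.33, edgeR adjusted p = 0.0489). Counts of levels and shares above the Ptprc gate and of pairs stayed within 1.5 times. The levels themselves often moved out of their main Poisson interval. With gates at the 99th percentile 78 moved and 57 stayed, and with gates of 3 UMIs alone 60 moved and 84 stayed. Without the 5% of cells with the most UMIs 49 moved and 95 stayed, and with TMM-scaled totals 30 moved and 114 stayed. With the cell filter on genes and mitochondrial UMIs 1 moved and 143 stayed.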

Other observations

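Cells that passed no gate were the most numerous in each library and held every member. Wif1 was in 84.1%, 91.9% and 89.6% of them at P15, P25 and 8 weeks after thinning, and Frzb, a decoy receptor, in 12.2%, 14.5% and 22.3%. Sfrp1 was at 241, 249 and 331 CPM there. Notum was at 17.9, 8.04 and 5.2 CPM, 3.44 times lower at 8 weeks than at P15. Dkk1 had 67, 14 and 15 UMIs in these cells. The erythroid genes Hba-a1, Hbb-bs and Alas2 together were at 6917, 5070 and 1107 CPM in them, against 3785, 2906 and 571 CPM over all cells. The cells of no gate are thus not read as mesenchyme alone, and the part of red cells or free RNA in this was not tested.

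The number of members detected per cell differed most with age in the Rgs5 gate. After thinning its cells held UMIs of 1.48, 2.75 and 3.12 members on average at P15, P25 and 8 weeks, and 6.62%, 27% and 31.9% of them held at least 4. In the Hand2 gate the average was 2.82, 2.43 and 2.60. The Rgs5 gate lost most of its Notch3-positive cells between the same ages, and the part of that in the difference was not tested.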
